A study of Mus musculus with 7 samples.

Results

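The immediate early and inducible heat shock genes are 10 genes named beforehand: the AP-1 subunit genes Fos, Fosb, Jun and Junb, the further immediate early genes Egr1, Atf3, Ier2 and Dusp1, and the heat shock genes Hspa1a and Hspa1b. They were taken by symbol from a table of 16167 genes. Of the 10, 9 were found, and Fosb was not analysed here. RNA was sequenced from whole mouse kidneys at E15.5 in 7 libraries. The 4 mutant libraries, labelled Six2-Cre; Irx3/5(loxP/loxP), came from embryos in which both copies of the Iroquois homeobox genes Irx3 and Irx5 carry loxP sites and Six2-Cre, a recombinase active in nephron progenitors, is present. The 3 control libraries, labelled Irx3/5(loxP/+), came from littermates with loxP sites on a single copy, and their labels name no Cre, so the deletion and the Cre transgene cannot be told apart. Ureteric, stromal, vascular and blood cells of the mutant kidneys lie outside the Cre's main lineage. The labels speak of kidney pairs and do not say whether embryos were pooled, so the spread and the p-values are those between libraries.

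Immediate early genes are transcribed within minutes of a signal such as a growth factor, injury or handling of a tissue, without new protein synthesis, and their RNAs are short-lived. Kinases of the MAP kinase family act on serum response factor, its Elk partners and CREB at their promoters. The products include the AP-1 factors, dimers of Fos and Jun family proteins, and feedback inhibitors such as Dusp1. Hspa1a and Hspa1b encode the stress-inducible chaperone of the heat shock protein family, which heat shock factor switches on when proteins misfold, so both sets of RNAs report on how cells or samples were treated as well as on signalling in the tissue.

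The libraries held between 40511920 and 69028943 reads in the genes of the table. Irx3, a target of the deletion, was at 13.9 ± 1.07 FPKM in controls and 5.73 ± 1.28 FPKM in mutants (SD, n = 3 and 4; limma adjusted p = 0.0145) and Irx5 did not differ past the threshold (limma adjusted p = 0.989). FPKM are fragments scaled by gene length and library size. Nephron progenitor markers summed to 174 to 289 FPKM and podocyte markers to 71.2 to 133 FPKM over the libraries. At a limma adjusted p under 0.05, 5 of 9 and 3 of 5 of these markers were lower in mutants. Of all genes tested, 1.53% passed in either direction. Skeletal muscle markers summed to 64.3 FPKM in control replicate 1 and to between 6.81 and 8.45 FPKM in the other 6 libraries.

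No immediate early or heat shock gene differed between mutants and controls past the threshold. Of the 9, 7 passed the filter of at least 1 FPKM in at least 3 libraries and were tested in limma on log2(FPKM + 1) with p adjusted over all 13466 genes tested. At an adjusted p under 0.05, 0 of the 7 were called, beside 1.53% of all genes tested. At an unadjusted p under 0.05 there was 1, Egr1, beside 13.7% of all genes tested. Without the filter limma called 0 of the 9, beside 1.58% of all genes. Limma-voom on the recovered reads called 0 of the 7 (1.59% of all genes), with Egr1 alone at an unadjusted p under 0.05 (14.0% of all genes). In the authors' deposited table, a DESeq2 comparison, 0 of the 9 had an adjusted p under 0.05 (5.49% of the genes with a p-value did), and Egr1 and Ier2 had an unadjusted p under 0.05 (14.1% of genes did). The 7 tested genes had a median log2 fold change, mutant minus control, of -0.21, with 5 of 7 below 0, beside a median of -0.0020 over all genes tested, 50.8% of them below 0. For none of the 9 did the libraries of the groups lie apart, beside 14.5% of all genes tested.

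**Figure D1:**
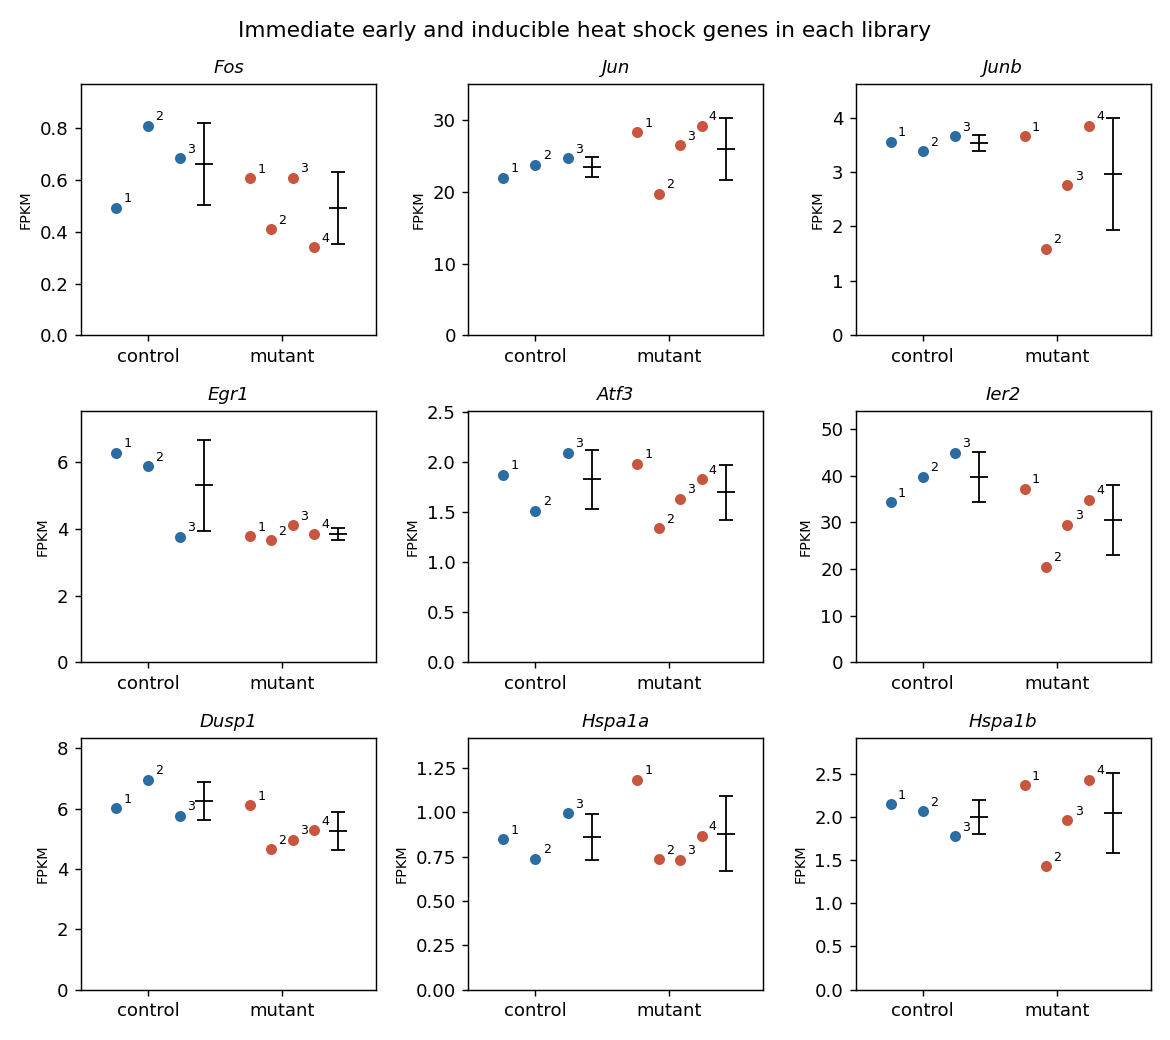
FPKM (vertical axis, from 0) of the 9 listed genes in the 3 control (blue) and 4 mutant (red) libraries, each point a library with its replicate number, and beside each group its mean and SD. The groups overlap for every gene, and mutant replicate 2 is the lowest or next to lowest library throughout.

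In FPKM, a per-length scale on which genes can be compared, the order of mean levels was the same in both groups. Control means fell from Ier2 (39.7 ± 5.27) and Jun (23.5 ± 1.39) through Dusp1 (6.25 ± 0.63), Egr1 (5.30 ± 1.35), Junb (3.53 ± 0.14), Hspa1b (1.99 ± 0.20) and Atf3 (1.83 ± 0.29) to Hspa1a (0.860 ± 0.13) and Fos (0.662 ± 0.16; SD, n = 3). Dusp1 and Egr1, Hspa1b and Atf3, and Hspa1a and Fos were neighbours in that order whose control libraries overlapped. In mutants the libraries of Ier2 (30.5 ± 7.42) and Jun (25.9 ± 4.30), of Egr1 (3.85 ± 0.19) and Junb (2.97 ± 1.03), of Junb and Hspa1b (2.04 ± 0.46; SD, n = 4) and of Hspa1b and Atf3 overlapped. Fos RNA was thus the lowest of the set in both groups, resting on 41 to 114 reads per library, while Jun rested on 2944 to 4899. The places of Hspa1a and Hspa1b depend on how reads that fit both genes were counted, which is not given.

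Among the AP-1 subunits, Jun was the only listed member with a higher mean in mutants, and the groups overlapped for all 3. RefSeq windows of 250 bases upstream of the start site (build GRCm38.p6) were found for 8 of the 10 genes, those other than Egr1 and Ier2, and are shown for these subunits to place the sequences from which their transcription starts. Capitals mark TGACG (the core of the CREB site, on either strand), GAANNTTC (a core of the heat shock element, the same on both strands) and CCAAT (on either strand), read 5′ to 3′ in the direction of the gene.
Fos (chr12:85473640-85473889, + strand): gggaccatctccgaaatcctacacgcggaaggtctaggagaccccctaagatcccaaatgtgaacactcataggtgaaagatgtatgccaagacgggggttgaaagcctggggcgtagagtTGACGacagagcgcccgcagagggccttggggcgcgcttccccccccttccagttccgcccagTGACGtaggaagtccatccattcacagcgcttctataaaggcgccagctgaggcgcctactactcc
Jun (chr4:95052223-95052472, - strand): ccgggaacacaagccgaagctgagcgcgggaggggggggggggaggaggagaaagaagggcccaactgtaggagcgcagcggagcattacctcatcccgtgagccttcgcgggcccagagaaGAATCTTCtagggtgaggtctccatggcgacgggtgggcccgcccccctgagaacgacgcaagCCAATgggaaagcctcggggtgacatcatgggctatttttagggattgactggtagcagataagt
Junb (chr8:84978749-84978998, - strand): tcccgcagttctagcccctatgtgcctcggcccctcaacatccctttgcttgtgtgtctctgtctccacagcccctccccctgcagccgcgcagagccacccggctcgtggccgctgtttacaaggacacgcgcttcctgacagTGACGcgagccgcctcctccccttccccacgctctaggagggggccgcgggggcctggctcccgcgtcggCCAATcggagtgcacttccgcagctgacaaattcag
The core TGACG occurred 2 times in the Fos window and 1 time in that of Junb, and 17.8% of all 32851 windows held it. The Jun window held GAANNTTC, found in 6.7% of all windows. The full CREB site TGACGTCA, the AP-1 site TGANTCA and the CArG box of serum response factor were not found in these 3 windows (1.5%, 6.7% and 1.5% of all windows hold them). Sequence farther upstream than 250 bases was not searched, so sites there would be missed. Only these exact patterns were searched, so variants of these sites would be missed as well. The Jun window holds TGACATCA, for example, which differs from TGACGTCA by 1 base.

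Fos, the AP-1 subunit that is low in resting tissue and rises on stimulation, was at 0.493, 0.810 and 0.683 FPKM in control replicates 1 to 3 and at 0.607, 0.409, 0.609 and 0.340 FPKM in mutant replicates 1 to 4. No library reached 1 FPKM, so Fos did not enter the filtered test, and control replicate 1 lay among the mutants. Without the filter its log2 fold change was -0.16 (SE 0.092; limma adjusted p = 0.531; exact permutation p = 0.2, two-sided, 0.0286 being the smallest value the design allows). In the authors' deposited table it was -0.43 (SE 0.33; DESeq2 adjusted p = 0.698).

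Jun, the partner of Fos in AP-1, was at 22.0, 23.8 and 24.7 FPKM in controls and at 28.3, 19.7, 26.5 and 29.2 FPKM in mutants. Mutant replicates 1, 3 and 4 exceeded all controls and mutant replicate 2 was below all of them. The log2 fold change was 0.12 (SE 0.13; limma adjusted p = 0.781; exact permutation p = 0.457). Without mutant replicate 2 it was 0.245, and missed the threshold there as well (limma adjusted p = 0.221).

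Junb, a Jun relative that can restrain Jun's activity, was at 3.56, 3.38 and 3.66 FPKM in controls and at 3.66, 1.59, 2.76 and 3.85 FPKM in mutants. The controls lay close together, while the mutants spanned both sides of them. The log2 fold change was -0.24 (SE 0.20; limma adjusted p = 0.719; exact permutation p = 0.486), and -0.04 without mutant replicate 2.

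Of the further immediate early genes, all 4 had a lower mean in mutants and none was called. Egr1, a zinc finger factor of the growth factor response, had the smallest p. It was at 6.28, 5.87 and 3.76 FPKM in controls and at 3.78, 3.66, 4.10 and 3.86 FPKM in mutants. Control replicates 1 and 2 stood above all mutants, and control replicate 3 lay within the mutant range. The log2 fold change was -0.35 (SE 0.14; limma adjusted p = 0.288, unadjusted p = 0.0307; exact permutation p = 0.114), and the authors' deposited table gave -0.46 (SE 0.17; DESeq2 adjusted p = 0.0916). Without control replicate 3 it was -0.55 (limma adjusted p = 0.0515), and without control replicate 1 or 2 it was -0.24 or -0.28 (limma adjusted p = 0.665 and 0.684). With limma's array weights, which weigh libraries by their spread, Egr1 and Dusp1 passed as lower (adjusted p = 0.0348 and 0.0363), 2 of the 7. That setting called 9.67% of all genes tested, and 6.45% of them as lower.

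Some list sums, picked here for that reason, differed between the controls in the same order as Egr1. Others did not, such as that of the erythroid markers (2998, 5982 and 3290 FPKM). With only 3 controls, many values share an order. The 5 smooth muscle markers, all 5 of them listed, summed to 146, 115 and 72.4 FPKM in control replicates 1 to 3 and to 117, 94.0, 83.2 and 78.7 FPKM in mutant replicates 1 to 4. The 9 mitochondrially encoded RNAs summed to 9062, 7119 and 4519 FPKM in controls and to 7689, 8939, 5618 and 8921 FPKM in mutants. Single genes departed from that order in controls, such as mt-Nd2 (980, 1070 and 486 FPKM) and the smooth muscle marker Des (15.9, 13.4 and 15.2 FPKM). For both sums all mutants lay above control replicate 3 and some above control replicate 2. Reads in the genes of the table had the order of Egr1 in controls as well (69028943, 59518537 and 40511920 in control replicates 1 to 3). In mutant replicates 1 to 4 they numbered 53497462, 46255680, 45539155 and 51702442. The part of these sums and of the read numbers in the Egr1 values was not tested. In whole-kidney RNA, fewer cells of a type and less RNA per cell cannot be told apart.

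Ier2, a nuclear protein gene of the serum response and the most abundant of the set, was at 34.3, 39.8 and 44.9 FPKM in controls and at 37.2, 20.5, 29.5 and 34.9 FPKM in mutants. Mutant replicates 1 and 4 lay within the control range, and mutant replicates 2 and 3 below it. The log2 fold change was -0.39 (SE 0.20; limma adjusted p = 0.452; exact permutation p = 0.171), and -0.22 without mutant replicate 2. The authors' deposited table gave -0.38 (DESeq2 unadjusted p = 0.0427, adjusted p = 0.323).

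Dusp1, a phosphatase that switches off MAP kinases, has a window with 3 marked cores, 2 of them overlapping in the full CREB site TGACGTCA, which 1.5% of all windows hold.
Dusp1 (chr17:26508473-26508722, - strand): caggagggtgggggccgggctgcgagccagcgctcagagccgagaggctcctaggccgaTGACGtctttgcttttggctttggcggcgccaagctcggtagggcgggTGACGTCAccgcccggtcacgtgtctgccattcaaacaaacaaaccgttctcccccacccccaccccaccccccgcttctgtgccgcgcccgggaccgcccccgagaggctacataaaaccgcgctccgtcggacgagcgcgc
Its RNA was at 6.02, 6.96 and 5.77 FPKM in controls and at 6.12, 4.65, 4.98 and 5.28 FPKM in mutants. Mutant replicates 2, 3 and 4 were below all controls and mutant replicate 1 was among them. The log2 fold change was -0.21 (SE 0.098; limma adjusted p = 0.389; exact permutation p = 0.114). Atf3, a stress-induced factor of the bZIP class, was at 1.87, 1.51 and 2.09 FPKM in controls and at 1.98, 1.34, 1.63 and 1.83 FPKM in mutants, with full overlap (log2 fold change -0.07, SE 0.11; limma adjusted p = 0.887; exact permutation p = 0.543).

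**Figure D2:**
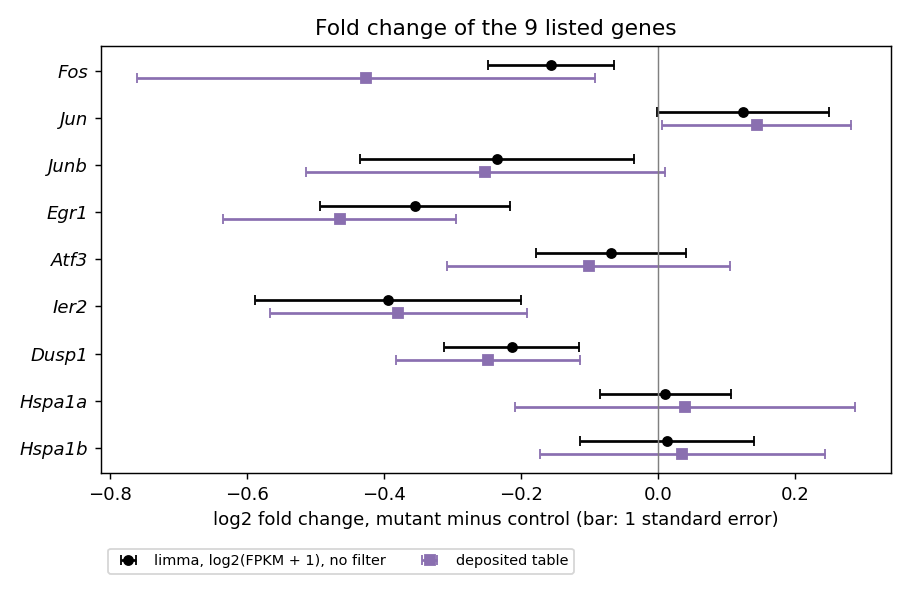
Log2 fold change, mutant minus control (horizontal axis), with a bar of 1 standard error for each of the 9 genes, from limma on log2(FPKM + 1) without a filter (circles) and from the authors' deposited DESeq2 table (squares). Egr1 and Ier2 have the lowest limma values, -0.35 and -0.39, and Jun, Hspa1a and Hspa1b lie at or above 0.

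The inducible heat shock genes did not differ detectably between groups. Hspa1a and Hspa1b are copies of a gene, and their upstream windows are shown to let the copies be compared.
Hspa1a (chr17:34972157-34972406, - strand): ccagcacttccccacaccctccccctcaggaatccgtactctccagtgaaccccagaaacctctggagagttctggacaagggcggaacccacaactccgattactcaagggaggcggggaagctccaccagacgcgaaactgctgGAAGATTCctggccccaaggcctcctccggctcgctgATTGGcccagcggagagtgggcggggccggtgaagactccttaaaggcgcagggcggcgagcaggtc
Hspa1b (chr17:34959239-34959488, - strand): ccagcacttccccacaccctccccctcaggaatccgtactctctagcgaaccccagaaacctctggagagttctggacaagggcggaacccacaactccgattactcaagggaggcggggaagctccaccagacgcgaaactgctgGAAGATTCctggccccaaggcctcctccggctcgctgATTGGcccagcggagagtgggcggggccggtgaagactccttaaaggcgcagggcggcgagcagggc
Both windows hold GAANNTTC and CCAAT at the same places. They differ by 3 substitutions in 250 bases (98.8% identity), C44T, T47C and T249G, with the Hspa1a base first and positions counted from 1 at the 5′ end of the window. Of the 75-base stretches of the GENCODE M21 transcripts, 52.7% of those of Hspa1a also occur in Hspa1b and 55.8% of those of Hspa1b in Hspa1a. At 150 bases the shares are 38.1% and 40.5%. How the authors' counting treated reads that fit both copies is not given in the sources used here, so the split between the copies is uncertain. If such reads were left out, the FPKM of both copies and their sum would be too low.

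Hspa1a was at 0.849, 0.738 and 0.993 FPKM in controls and at 1.18, 0.735, 0.732 and 0.867 FPKM in mutants, from 100 to 189 reads. Only mutant replicate 1 reached 1 FPKM, so it did not enter the filtered test. Without the filter the log2 fold change was 0.01 (SE 0.095; limma adjusted p = 0.984). Hspa1b was at 2.14, 2.06 and 1.77 FPKM in controls and at 2.36, 1.43, 1.96 and 2.43 FPKM in mutants. Mutant replicates 1 and 4 were above the controls and mutant replicate 2 below them (log2 fold change 0.01, SE 0.13; limma adjusted p = 0.986). The sum of both copies, which does not depend on the split between them, was 2.85 ± 0.12 FPKM in controls and 2.92 ± 0.62 FPKM in mutants (exact permutation p = 0.971). Hspa1b made up 64.1% to 73.7% of that sum in the 7 libraries.

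A single library, mutant replicate 2, held the lowest values of the set. It was the lowest of the 7 libraries for 7 of the 9 genes and among the lowest pair for all 9. The exceptions to the first count were Fos, lowest in mutant replicate 4, and Hspa1a, lowest in mutant replicate 3. Over all genes tested, mutant replicate 2 was lowest for 15.6% and among the lowest pair for 29.0%. Its FPKM as a percentage of the mean of the other mutants was 46.4% for Junb, 60.5% for Ier2, 63.4% for Hspa1b, 70.4% for Jun, 73.8% for Atf3, 78.8% for Fos, 79.3% for Hspa1a, 85.2% for Dusp1 and 93.4% for Egr1. The median of those percentages was 73.8%, beside 100.2% over all genes tested. Egr1 was thus the member least marked in that library, and Junb the most.

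**Figure D3:**
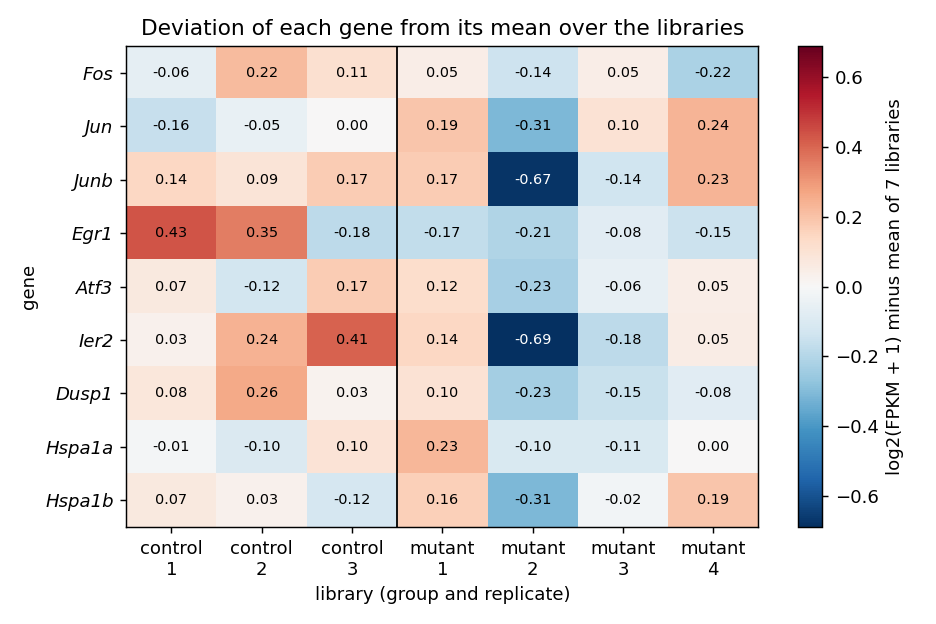
Deviation of log2(FPKM + 1) from each gene's mean over the 7 libraries, genes in rows and libraries in columns, with red above and blue below the mean. The column of mutant replicate 2 is below the mean for all 9 genes, with -0.67 for Junb and -0.69 for Ier2, and Egr1 is above it in control replicates 1 and 2 only.

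Gene structure and base composition moved with this pattern. Jun, Junb, Ier2, Hspa1a and Hspa1b have 1 exon in GENCODE M21, and Fos, Egr1, Atf3 and Dusp1 have 2 to 4. Protein-coding genes with 1 exon made up 2.43% of the genes tested. Transcript GC content ran from 51.9% (Fos) to 62.6% (Junb) among the 9, beside a median of 50.2% over the genes tested. In mutant replicate 2 the median deviation from the mutant mean, on the log2(FPKM + 1) scale, went from 0.08 in the class of lowest GC content to -0.08 in the class of highest, with the genes tested split by GC content into 5 classes of about equal size. In mutant replicate 1 it went the other way, from -0.10 to 0.11. Among the 112 protein-coding genes with 1 exon in the highest class, mutant replicate 2 was the lowest library for 68.8%, and among the 2419 with more exons for 40.3%. Of the 9, Junb, Ier2 and both Hspa1 genes combine 1 exon with a GC content in that class, above 56.0%.

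Removal of each library's trend on GC content, an alternative chosen after seeing the data, left mutant replicate 2 lowest for 6 of the 9 genes with the trend fitted over all genes listed, beside 11.3% of all genes tested. The exceptions were Fos, Egr1 and Hspa1a. The difference between mutant replicate 2 and the mean of the other mutants, on the log2(FPKM + 1) scale, went from -0.76 to -0.59 for Junb, from -0.69 to -0.54 for Ier2, from -0.48 to -0.43 for Jun, from -0.42 to -0.32 for Hspa1b and from -0.14 to -0.03 for Hspa1a. For the members with more exons it went from -0.26 to -0.25 (Atf3), -0.19 to -0.14 (Dusp1), -0.10 to -0.09 (Fos) and -0.08 to 0.01 (Egr1). The median of this difference over the 9 genes went from -0.26 to -0.25, the value of Atf3 in both cases. For each of the 9 genes the difference rose. For genes with 1 exon in the highest GC class the share with mutant replicate 2 lowest was 47.3% after this step, and for those with more exons 16.7%. Exon number was not modelled, and its part in the pattern was not tested. With the trend fitted over the 13466 genes tested, limma called 0 of the 7, and 0 had an unadjusted p under 0.05. In that fit Junb, Ier2 and Egr1 had log2 fold changes of -0.08, -0.28 and -0.32.

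**Figure D4:**
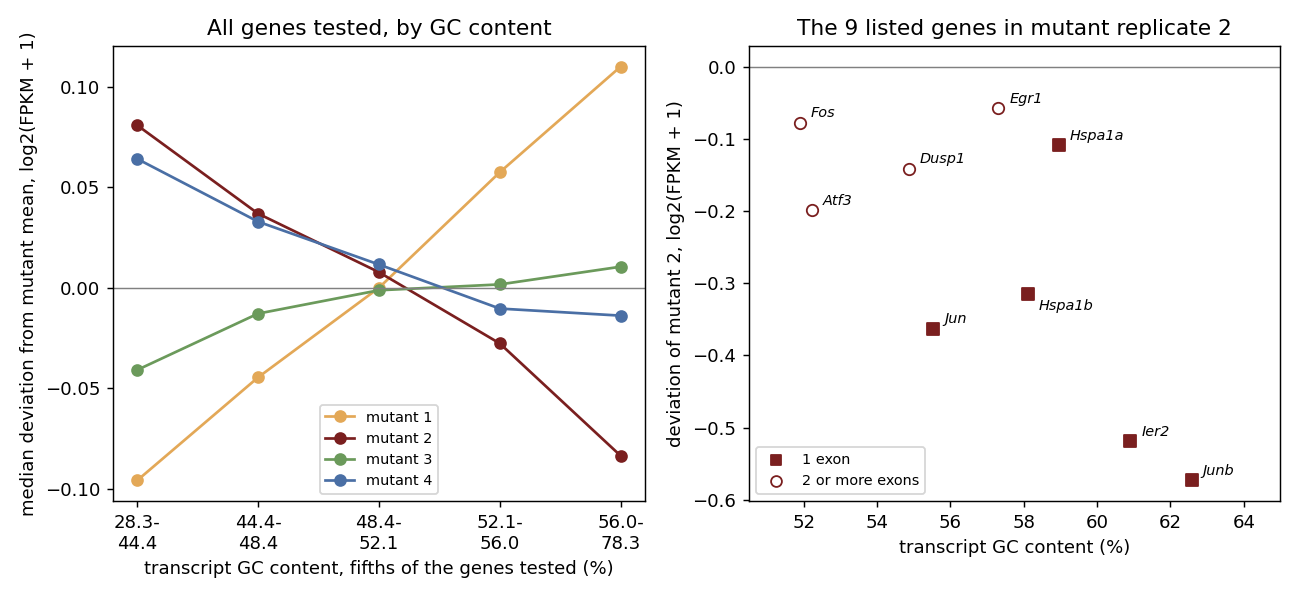
Left, the median deviation of each mutant library from the mutant mean, in log2(FPKM + 1), for the genes tested in 5 classes of transcript GC content (%), with mutant replicate 2 falling from 0.08 to -0.08 and mutant replicate 1 rising from -0.10 to 0.11. Right, the deviation of mutant replicate 2 for the 9 genes against their GC content, filled squares with 1 exon and open circles with more, lowest for Ier2 (-0.52) and Junb (-0.57).

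In log2(FPKM + 1), which narrows differences among values near or under 1 FPKM, the spread between libraries was widest for Junb and Ier2. The SD of log2(FPKM + 1) within groups, pooled over both, had a median of 0.20 over the 7 tested genes, beside 0.12 over all genes tested. It was largest for Junb (0.32) and Ier2 (0.31), above 94.7% and 94.3% of the genes tested, and smallest for Dusp1 (0.13). The coefficient of variation of Junb FPKM was 3.95% among controls and 34.9% among mutants, and counting error alone gives 5.04% at its mean reads. Egr1 showed the opposite, with 25.5% among controls and 4.89% among mutants. For Fos it was 24.1% and 28.1%, beside a counting error of 12.0%, and for Ier2 13.3% and 24.3%. The highest FPKM over the lowest was 2.43 for Junb, 2.38 for Fos and 2.19 for Ier2. By both measures Fos spread more than Ier2. Without mutant replicate 2 the median pooled SD of the set was 0.13.

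**Figure D5:**
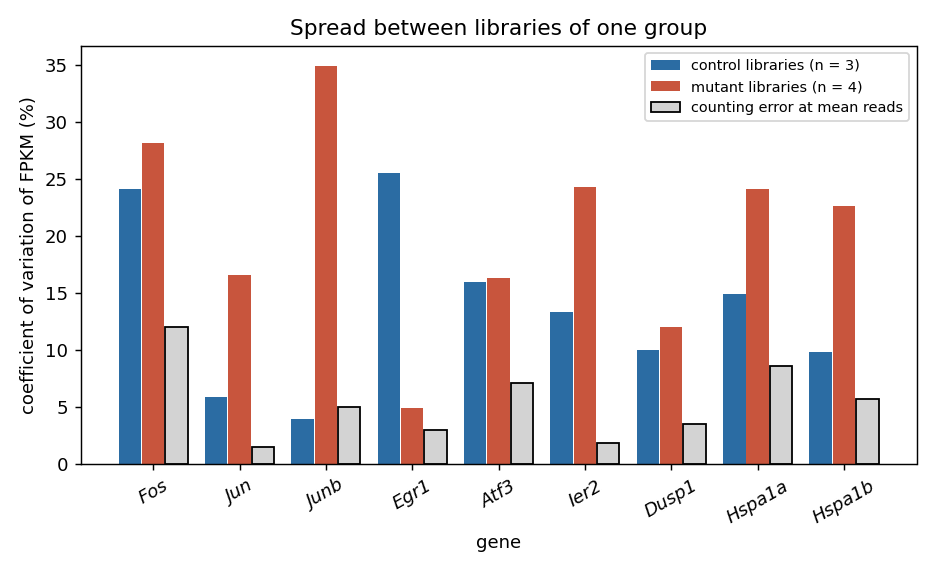
Coefficient of variation of FPKM (%, vertical axis from 0) among control libraries (blue) and mutant libraries (red) for each gene, beside the value that counting error alone gives at the gene's mean reads (grey). Junb has 34.9% among mutants and 3.95% among controls, and Egr1 4.89% and 25.5%.

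Related genes were read from lists drawn up by function. The Jun relative Jund, named after its values were seen, has 1 exon and a GC content of 67.2%. It was at 116, 114 and 76.6 FPKM in controls and at 71.1, 22.5, 36.1 and 59.7 FPKM in mutants, with a log2 fold change of -1.20 and an SE of 0.40 (not past the threshold, limma adjusted p = 0.238; DESeq2 adjusted p = 0.119 in the authors' deposited table). All controls exceeded all mutants for Jund, and mutant replicate 2 was again the lowest.

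Of 32 other immediate early genes tested, 1 fell, 0 rose and 31 did not pass, with a median of -0.14 and 13 at an unadjusted p under 0.05, beside 1.53% of all genes tested called and 13.7% at an unadjusted p under 0.05. Tob1, an antiproliferative adaptor of RNA decay, went from 17.4 ± 1.01 to 12.2 ± 1.39 FPKM (log2 fold change -0.48, SE 0.090; limma adjusted p = 0.0438). Among 37 listed members of this group the authors' deposited table had 5 lower and 2 higher at an adjusted p under 0.05, beside 5.49% of all genes in either direction. Named after their values were seen, the lower ones were Egr2, Ier5, Klf2, Zfp36l2 and Tob1, and the higher ones Zfp36l1 and Gadd45b. Of 16 MAP kinase phosphatases and feedback genes tested, 1 fell, 0 rose and 15 did not pass (1.53% of all genes tested were called), with a median of -0.09 and 5 at an unadjusted p under 0.05. The authors' deposited table had 2 lower, Dusp5 and Spry4, and 1 higher, Dusp10, the latter pair named after their values were seen. Dusp5, a phosphatase for nuclear ERK and a relative of Dusp1, went from 4.56 ± 0.13 to 3.18 ± 0.29 FPKM (log2 fold change -0.41, SE 0.080; limma adjusted p = 0.0466).

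Upstream of the set, 0 of 24 tested kinases and factors passed in limma, with 3 at an unadjusted p under 0.05, 0 in the deposited table and a median of 0.02. The shares over all genes, for this list and the next, were 1.53%, 13.7% and 5.49%. Srf, the serum response factor, was at 29.3 ± 4.87 FPKM in controls and 22.6 ± 1.56 FPKM in mutants (limma adjusted p = 0.175), and its partner Elk3 at 27.3 ± 0.91 and 31.3 ± 1.09 FPKM (limma adjusted p = 0.152). Srf stood at 32.5, 31.8 and 23.7 FPKM in control replicates 1 to 3, so control replicate 3 was the low control for it as for Egr1. Of 30 other heat shock response genes, 0 passed in limma, 0 at an unadjusted p under 0.05 and 0 in the deposited table, with a median of 0.05. The members with the smallest p were the co-chaperone gene Dnaja1 (43.8 ± 1.74 and 48.1 ± 2.77 FPKM) and the mitochondrial chaperone gene Hspa9 (177 ± 3.61 and 162 ± 5.32 FPKM). Their pooled SD had a median of 0.09, lower than the 0.12 of all genes tested.

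Of 20 tested genes of the integrated stress and unfolded protein responses, through which Atf3 can be induced, 0 passed in limma and 0 in the deposited table. Over all genes the shares were 1.53% and 5.49%. At an unadjusted p under 0.05 in limma there were 2, beside 13.7% of all genes tested. These were Ddit3, a factor of that response (6.70 ± 0.21 and 7.86 ± 0.49 FPKM), and the chaperone gene Calr (429 ± 10.4 and 482 ± 22.7 FPKM). Of 13 tested hypoxia genes 1 fell, 0 rose and 12 did not pass in limma, with 5 at an unadjusted p under 0.05, beside 1.53% and 13.7% of all genes tested. Vegfa, the vascular growth factor, went from 30.1 ± 1.16 to 24.5 ± 0.58 FPKM (limma adjusted p = 0.0495). The authors' deposited table had Vegfa lower and 1 gene higher, Adm, the vasodilator peptide adrenomedullin, named after its values were seen (2.15 ± 0.29 and 3.22 ± 0.31 FPKM; DESeq2 adjusted p = 0.0289; limma adjusted p = 0.072). Of 9 mitochondrially encoded RNAs 0 passed in limma, 0 at an unadjusted p under 0.05 and 0 in the deposited table, and the smallest p belonged to mt-Atp6 and mt-Co3 (adjusted p = 0.569 and 0.691). The adjusted p of Tob1, Dusp5 and Vegfa lay between 0.0438 and 0.0495, close to the threshold.

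The genes most like a member in pattern were found by Pearson's r of log2(FPKM + 1) over the 7 libraries after removal of the group means, among 13303 genes. For Fos they were Gm8116, Snrpert, Nsun5, Gm10250 and Smoc2 (r from 0.963 to 0.981), for Hspa1a Txnrd2, Mrpl53, Fgfr4, Cenph and Ccdc115 (0.973 to 0.988), and for Atf3 Atg7, Klc2, Dnajc10, Chkb and Gm36445 (0.961 to 0.989). With 7 libraries high values are common, and 57, 163 and 55 genes reached an r of 0.9 with Fos, Hspa1a and Atf3. Between members, the r of Fos ran from -0.097 (Egr1) to 0.497 (Dusp1), that of Hspa1a from -0.417 (Egr1) to 0.845 (Atf3), and that of Atf3 from -0.384 (Egr1) to 0.845 (Hspa1a). Atf3 had 0.798 with Junb, 0.779 with Ier2 and 0.722 with Jun. All share libraries, and with them depth and base composition, so these values are descriptions.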

How the data were processed

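The table the authors deposited holds 16167 genes with FPKM per library and, per the file headers, DESeq2 columns: a mean of normalized counts (a normalized signal the authors made), the log2 fold change and its error, a test statistic (a score) and p-values, which were copied and not recomputed. The submitters' processing notes list STAR 2.6.0c, HTSeq 0.6.1p2 and the quality tools Trim Galore 0.5.0 and FastQC 0.11.5, with build mm39 (GRCm39), and give no roles. Per the labels' protocols the library kit keeps strand, and whether counting used it is not given in the sources used here. The lowest mean of normalized counts listed was 18.5.

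Reads were recovered from that mean, FPKM and a size factor per library, and 100% of values came within 0.05 of a whole number. The main test used FPKM: log2(FPKM + 1) was fitted in R 4.3.3 with limma 3.58.1 (trend and robust options, two-sided), adjusted by Benjamini-Hochberg, checked on simulated counts. Alternatives changed the pseudocount, filter, normalization, weights, block, test, length or GC trend, or left out each library. Named were the members, Irx3, Irx5, the called members of each list (up to 4, or the pair with the smallest p) and the 5 genes most like Fos, Hspa1a and Atf3. Members and lists were chosen with earlier results of these data known. The list of other AP-1 partners is not reported here, apart from Jund. GC content, exons (longest transcript; 16150 of 16167 identifiers matched) and upstream windows come from GENCODE M21 and RefSeq on GRCm38, not the build of the table. Limma-voom took library sizes scaled by median-of-ratios factors. Figures were drawn in Python 3.11.15 with matplotlib 3.10.9.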

Additional observations from a re-analysis of the deposited data

How the results depend on the processing

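The count of genes called was 206 as first tested, and 109 with a pseudocount of 0.1, 60 with a minimum of 5 FPKM, 1302 with array weights, 886 in the deposited test and 422 with the length trend removed; leaving out 1 library gave 11 to 486. No immediate early or heat shock gene was called under 18 of 19 alternatives, and 2 were with array weights. Under these weights the log2 fold change of Atf3 was 0.017. That of Hspa1b ran from -0.0482 to 0.118 when 1 library was left out. The median log2 fold change of the tested members ran from -0.28 to -0.04 when 1 library was left out, and their median pooled SD from 0.13 (without mutant replicate 2) to 0.22. With the replicate number as a block, 2 genes and 0 members were called, and Hspa1b had a log2 fold change of -0.0482. Mutant replicate 4 has no control of its number, so in this setting it adds nothing to the fold change. Deviations of same-numbered libraries correlated at -0.156, 0.028 and 0.098, and those of unlike numbers at -0.253 to 0.141. With so few libraries and group means removed, these values cannot settle whether the numbers pair the samples. Counting error limits Fos and Hspa1a, which had the fewest reads.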
